A study of Mus musculus with 21 samples.

Results

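The genes described here carry the proteasome's naming prefix: their symbol is Psm, a letter from a to g and a digit. The rule found 50 genes, and all 50 are covered here. By role they were 7 somatic 20S alpha subunits (Psma1 to Psma7), 1 testis alpha subunit (Psma8), 7 constitutive 20S beta subunits (Psmb1 to Psmb7), 3 immunoproteasome beta subunits (Psmb8 to Psmb10), 1 thymoproteasome beta subunit (Psmb11), 6 ATPases and 11 other subunits of the 19S cap, 3 chaperones of 19S assembly (Psmd5, Psmd9, Psmd10), 4 chaperones of 20S assembly (Psmg1 to Psmg4), 5 activators (Psme1, Psme2, Psme2b, Psme3, Psme4) and 1 inhibitor (Psmf1). The remaining gene, Psmc3ip, has the prefix through its name alone and encodes a cofactor of meiotic recombination, so it is given apart.

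The 21 libraries hold total RNA, depleted of ribosomal RNA, from purified mouse testis cell fractions of wild-type (WT) animals and of animals without H2A.L.2 (H2al2 KO), a histone variant of late spermatids. There were 3 WT and 3 KO libraries each of pachytene spermatocytes (cells in meiotic prophase), round spermatids (haploid cells after meiosis) and condensing spermatids (cells compacting their nucleus), and 2 WT and 1 KO libraries of spermatozoa. The labels give no strain, age or animal for any replicate. The replicates are described as biological ones. Counts assigned to genes ran from 2772995 to 8201682 per library, with a median of 6872271, and all 3 spermatozoa libraries lay at the low end with 3450580 and 2772995 (WT) and 3297783 (KO).

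The proteasome is a barrel of alpha and beta rings, the 20S core, which cuts proteins and is opened by a cap such as the 19S particle that recognises ubiquitin chains. Male germ cells are known for alternative parts: Psma8 takes the place of its somatic relative Psma7 at one alpha position of meiotic cells, and Psme4 encodes PA200, an activator linked to the degradation of acetylated core histones in elongating spermatids. Psmb8, Psmb9 and Psmb10, the immunoproteasome subunits, replace Psmb5, Psmb6 and Psmb7 mainly in immune cells.

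The labels were checked against the deleted gene and cell markers. H2afb1, the entry for H2A.L.2 in the files, stood at 40.5, 36.4 and 14.5 in wild-type and 4.78, 4.91 and 3.14 in KO pachytene spermatocytes, 201, 206 and 212 in wild-type and 25.4, 25.4 and 20.7 in KO round spermatids, and 189.9, 159.7 and 249.8 in wild-type and 26.4, 35.7 and 29.9 in KO condensing spermatids (TMM-scaled CPM, called normalized CPM from here on). Every KO library lay under every WT library of its stage, and the KO minus WT log2 fold change (± standard error, as throughout) was -2.75 ± 0.38 (adjusted p = 0.484) in pachytene spermatocytes, -3.10 ± 0.10 (adjusted p = 3.4e-08) in round and -2.71 ± 0.16 (adjusted p = 9.5e-07) in condensing spermatids. The pachytene difference passed the threshold in 4 of 15 alternative settings, among them without WT pachytene replicate 3 (adjusted p = 5.2e-05), with a range of adjusted p from 6.8e-11 to 0.958.

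All 8 spermatocyte markers were detected in every group, and their summed level was 895 to 2008 normalized CPM in pachytene, 575 to 812 in round, 835 to 993 in condensing and 121 to 187 in spermatozoa libraries, with WT pachytene replicate 2 inside the range of the condensing libraries and the round libraries below all pachytene ones. The 8 round spermatid markers summed to 789 to 1043, 1574 to 1744, 1159 to 1377 and 215 to 377. The 8 elongating spermatid markers, with Prm2 the most abundant in both spermatid stages, summed to 3401 to 6871, 24661 to 31458, 24949 to 37813 and 11065 to 29146, so the round and condensing libraries overlapped on them. The 6 spermatogonium markers summed to 28.8 to 52.6, 38.3 to 54.9, 61.3 to 77.6 and 43.8 to 70.8 normalized CPM, low in all 4 stages.

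Somatic markers differed between stages too. The 8 Sertoli cell markers summed to 12.8 to 36.1 normalized CPM in pachytene, 26.8 to 53.3 in round, 320.0 to 501 in condensing and 301 to 625 in spermatozoa libraries, with Clu the most abundant up to the condensing stage. Every KO library lay under every WT library in the pachytene, round and condensing stages. The KO and WT ranges were 12.8 to 22.3 and 29.9 to 36.1 in pachytene and 26.8 to 32.6 and 34.7 to 53.3 in round. In condensing they were 320.0 to 381 and 394 to 501. The 6 Leydig cell markers summed to 22.96 to 143, 6.04 to 12.8, 77.6 to 203 and 9.52 to 17.2, low in the round and spermatozoa libraries. Here KO lay under WT in round (6.04 to 9.20 and 10.1 to 12.8) and condensing libraries (77.6 to 117 and 135 to 203). The genotypes overlapped in pachytene libraries. In spermatozoa the KO library was the highest on both lists. The 5 peritubular myoid markers, mostly Actg2, summed to 52.6 to 92.6, 314 to 413, 292 to 408 and 50.5 to 93.3. Sums of the 4 endothelial markers were 4.78 to 10.7, 5.903 to 9.62, 15.4 to 24.4 and 25.6 to 69.2, and those of the 5 red blood cell markers, nearly all from Alas2 with Hba-a1 at 0 throughout, were 0 to 1.19, 0.418 to 1.95, 18.4 to 25.8 and 47.1 to 50.4. On the myoid, endothelial and red blood cell sums the genotypes overlapped in the pachytene, round and condensing stages. No stage was highest for every somatic list, and their part in the results was not tested. In bulk fractions, fewer cells of a type and less RNA per cell cannot be told apart.

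Taken as a family, the 50 genes made up their smallest part of the RNA in spermatozoa. Every condensing library lay below every round library, and the pachytene libraries overlapped both. Their summed level ran from 4923 to 5637 normalized CPM in WT and 4768 to 5334 in KO pachytene libraries, 5779 to 5828 and 5620.4 to 5777 in round, 4538 to 4797 and 4665 to 4894 in condensing spermatids, and 2183 and 2276 (WT) and 2322 (KO) in spermatozoa. Which genes led the family changed between stages. Per kilobase of exon, the 5 highest in WT pachytene spermatocytes were Psmc3 (323 ± 51.7), Psmd2 (233 ± 28.9), Psmc2 (160.1 ± 21.01), Psmb6 (149 ± 19.05) and Psma8 (136 ± 7.87) normalized CPM per kb (mean ± SD, n = 3), of which Psmc3 and Psmc2 are ATPases and Psmd2 a scaffold of the 19S cap, and Psmb6 the somatic caspase-like beta subunit. In WT round spermatids the order was Psma6 (392 ± 26.9), Psmc3 (324 ± 12.2), Psmc2 (265 ± 13.1), Psme4 (237 ± 20.8) and Psmd2 (165 ± 8.397) CPM per kb, so an alpha subunit and the activator Psme4 had moved to the front and Psma8 had left it. Psma6 had been 6th in WT pachytene spermatocytes (132 ± 27.7), with an SD that overlapped Psma8. In KO pachytene spermatocytes Psma6 was 5th and Psme4 6th. In WT condensing spermatids the order was Psma6 (357 ± 30.5), Psmc3 (213 ± 24.1), Psmc2 (181 ± 8.695), Psme4 (178 ± 13.1) and Psmd2 (125 ± 15.1) CPM per kb. Neighbours in these orders whose SDs overlap cannot be ranked.

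From pachytene spermatocytes to round spermatids most proteasome genes fell and a few rose. In WT libraries 29 (63.0%) of the 46 members tested fell, where 35.9% of the 14011 genes tested fell, and 5 (10.9%) rose, where 34.4% of all genes rose. In KO libraries 31 (67.4%) fell beside 38.4% of 13877 genes, and 7 (15.2%) rose beside 36.5%. The same 5 genes rose in both genotypes: Psmd10, Psmf1, Psma6, Psme4 and Psmc2. The calls come from edgeR's quasi-likelihood test at a Benjamini-Hochberg adjusted p under 0.05 over all genes tested, and the WT and KO fits share no library. Of the 29 and 31 falls 28 were common to both genotypes, and no member was called in opposite directions. The share of all genes called alike in both genotypes was not computed, so this overlap is not read as a trait of the family. A gene called in 1 genotype alone is not shown to differ: the interaction test of this step called 0 members, beside 0.0% of 14479 genes, and DESeq2's Wald test called 0. At an unadjusted p under 0.05 in the edgeR interaction test there were 3 members, beside 1051 of all genes. With each library left out in turn that member count ran from 1 to 6. The median log2 fold change was -0.56 for the members and -0.02 for all genes in WT, and -0.45 and 0.00 in KO. Scaling by library size alone moved the medians of all genes to -0.20 (WT) and -0.15 (KO) and those of the members to -0.75 and -0.61. Psmg3 and Psmb10, which failed the count filter in the KO minus WT fit of the round libraries, passed it here through other stages, so their calls rest in part on the filter. The 4 members not tested for low counts in these fits were Psmb8, Psmb9, Psmb11 and Psme2b.

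**Figure D1:**
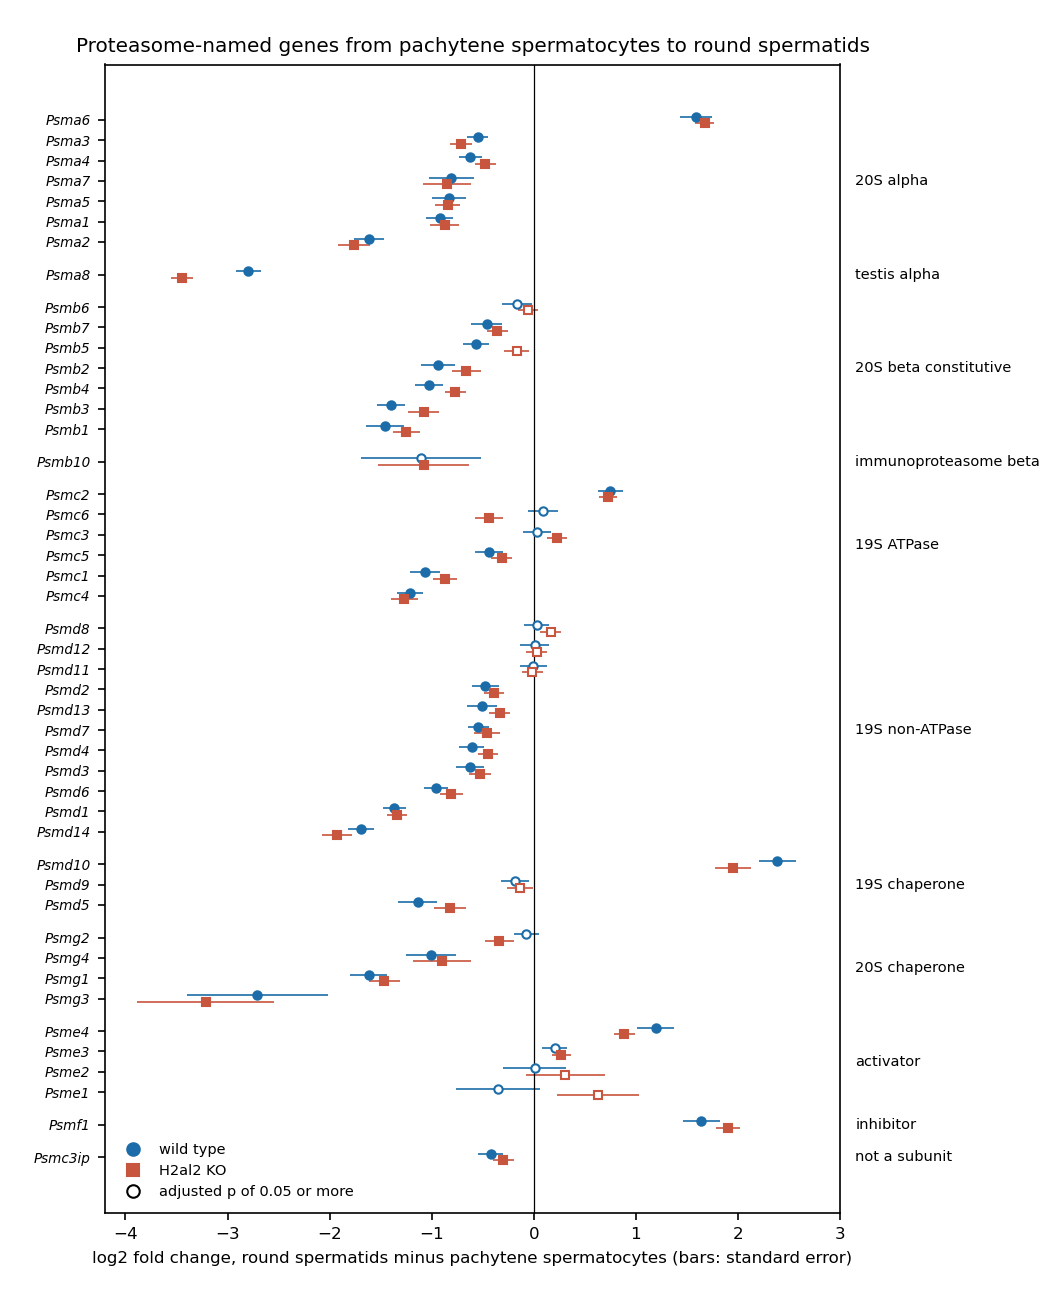
Log2 fold change of each tested proteasome-named gene from pachytene spermatocytes to round spermatids (x axis), in wild-type (circles) and H2al2 KO libraries (squares), grouped by role, with standard errors as bars and open symbols where the adjusted p is 0.05 or more. Psma8 lies furthest left in both genotypes, and Psmd10, Psmf1, Psma6, Psme4 and Psmc2 lie to the right of 0 with filled symbols in both.

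From round to condensing spermatids the family split more evenly. In WT libraries 9 (19.6%) of 46 members rose, where 28.3% of all genes rose, and 13 (28.3%) fell, where 21.8% did. In KO libraries 8 (17.4%) rose beside 29.7%, and 16 (34.8%) fell beside 24.5%. Common to both genotypes were 6 rises (Psma2, Psma7, Psma8, Psmd1, Psmd14 and Psme2) and 12 falls, and no member was called in opposite directions. Here too the share of all genes called alike was not computed. The interaction test called 0 members, beside 0.0% of 14479 genes, and DESeq2's Wald test called 0. At an unadjusted p under 0.05 in the edgeR interaction test there were 2 members, beside 407 of all genes. With each library left out in turn that member count ran from 1 to 3. The member medians of -0.09 (WT) and -0.10 (KO) on the log2 scale lay close to the all-gene medians of 0.04 and 0.03. With WT round replicates 2 and 3 summed the WT counts were 7 rises and 10 falls. Scaling by library size alone gave 10 rises and 8 falls in WT, which turned the balance. The WT count of falls dropped to 8 without WT round replicate 1 or WT round replicate 3, and the KO count of rises to 5 without KO condensing replicate 1. The 2 steps of a genotype share its round spermatid libraries.

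Psma8, the testis alpha subunit of meiotic cells (chr18:14706135-14762301, GRCm38, plus strand), was the member that fell most between pachytene and round stages in WT and KO alike. In WT its lead over Psmg3 (log2 fold change of -2.74 with no filter) lay within its standard error. It stood at 229.6, 216 and 243 in wild-type and 246, 265 and 240.2 in KO pachytene spermatocytes, 30.5, 34.3 and 32.95 in wild-type and 24.3, 20.9 and 24.9 in KO round spermatids, and 56.2, 73.3 and 66.7 in wild-type and 68.4, 63.1 and 66.5 in KO condensing spermatids normalized CPM. The pachytene libraries were far above the others, the round libraries lowest and the condensing libraries between, with no overlap among the 3 stages. In the step into round spermatids it fell in both genotypes, with log2 fold changes of -2.80 ± 0.13 (adjusted p = 8.0e-09) in WT and -3.44 ± 0.11 (adjusted p = 8.2e-15) in KO. It then rose into condensing spermatids, by 1.03 ± 0.13 (adjusted p = 4.7e-05) in WT and 1.51 ± 0.11 (adjusted p = 3.3e-09) in KO. In spermatozoa it was at 24.7 and 22.2 in the wild-type and 14.2 in the KO spermatozoa library, under every condensing library, and the WT step from condensing spermatids was -1.45 ± 0.18 (adjusted p = 3.8e-07).

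Psma7, the somatic subunit at the same position (chr2:180036367-180042464, minus strand), was scarce in meiosis and rose later. Its levels were 9.68, 8.77 and 8.03 in wild-type and 10.2, 6.18 and 7.84 in KO pachytene spermatocytes, 4.696, 5.71 and 4.500 in wild-type and 4.74, 4.55 and 4.32 in KO round spermatids, and 17.5, 11.5 and 17.9 in wild-type and 21.1, 13.7 and 17.6 in KO condensing spermatids normalized CPM. The 3 stages did not overlap, with round libraries lowest and condensing libraries highest, and the spermatozoa libraries were above all of them at 40.6 and 51.9 in the wild-type and 46.5 in the KO spermatozoa library. It fell modestly into round spermatids, -0.81 ± 0.22 (adjusted p = 0.00455) in WT and -0.85 ± 0.24 (adjusted p = 0.00301) in KO on the log2 scale. It rose into condensing spermatids by 1.67 ± 0.21 (adjusted p = 4.7e-05) and 1.96 ± 0.22 (adjusted p = 4.7e-07), and into WT spermatozoa by 1.59 ± 0.21 (adjusted p = 6.3e-07). Sertoli, Leydig, endothelial and red blood cell marker sums, given above, were higher in every condensing than in every round library. Peritubular myoid sums overlapped, as did the macrophage and T and NK cell sums given below. Most of the myoid sum was Actg2. Its mean was 319 of 331 normalized CPM in WT round and 299 of 345 in WT condensing libraries. In KO it was 356 of 368 and 292 of 327. The part of these cells in the rise of Psma7 was not tested.

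The balance of the pair moved from the testis form toward the somatic form between pachytene spermatocytes and round spermatids. Per kilobase of exon, Psma8 stood at 136 ± 7.87 and Psma7 at 7.48 ± 0.701 CPM per kb in WT pachytene spermatocytes (mean ± SD, n = 3), at 19.2 ± 1.15 and 4.21 ± 0.553 in round, and at 38.7 ± 5.08 and 13.2 ± 3.06 in condensing spermatids. Psma8 made up 94.8% ± 0.627 (SD) of the pair's level per kb in the WT pachytene stage, 82.1% ± 1.47 in the round stage, 74.3% ± 6.54 in the condensing stage and 26.4% ± 4.801 (n = 2) in spermatozoa. The KO shares were 95.6% ± 1.18, 78.1% ± 1.96 and 72.7% ± 3.48, and 17.5% in the single KO spermatozoa library, where 46 of 197 counts were from Psma8 (23.4%, exact 95% interval 17.6 to 29.9%). The interval covers counting error only. The spermatozoa libraries also hold markers of other cells, such as macrophage sums of 1687 and 1586 (WT) and 5606 (KO) normalized CPM beside 55.6, 32.7 and 46.2 in WT condensing libraries, whose part in the level of Psma7 was not tested. Per kb, Psma8 was the larger of the pair in all 18 libraries of the first 3 stages and the smaller in all 3 of spermatozoa. The log2 ratio of Psma8 to Psma7 fell into round spermatids, with a difference of -2.34 (p = 0.005, adjusted p = 0.015), in both genotypes with no overlap of libraries, by a two-sided exact permutation test that exchanged stage labels within genotype (400 relabellings, of which the smallest p is 0.005; Benjamini-Hochberg over 21 ratio tests). Into condensing spermatids its difference by the same exact permutation test was -0.44 (p = 0.035, adjusted p = 0.0612), and with a pseudocount of 0.1 in place of 0.5 it was -0.51 with an adjusted p of 0.0477, in a range over the pseudocounts that spans the threshold. No 75-base stretch of either transcript occurs in another gene's transcripts.

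**Figure D2:**
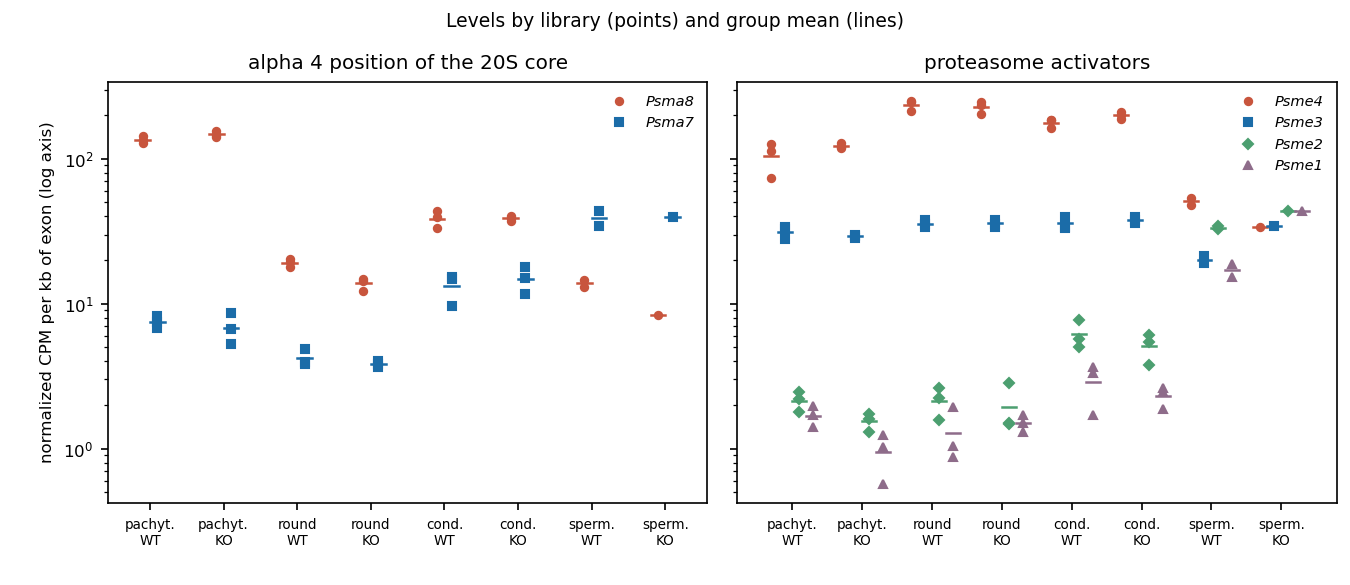
Normalized CPM per kb of exon (log axis) of Psma8 and Psma7 (left) and of the activators Psme4, Psme3, Psme2 and Psme1 (right), by stage and genotype, with 1 point per library and a line at the group mean. Psma8 lies above Psma7 in each library of the first 3 stages and below it in the 3 spermatozoa libraries, and Psme4 is the highest activator in each library of the first 3 stages.

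Among the other alpha subunits Psma6 went its own way. All 6 others, Psma1 to Psma5 and Psma7, fell into round spermatids in both genotypes, beside 35.9% (WT) and 38.4% (KO) of all genes, with log2 fold changes down to -1.61 (WT) and -1.76 (KO), both of Psma2. Psma6 (chr12:55384222-55418459, plus strand) stood at 168, 172 and 115 in wild-type and 141, 143 and 145 in KO pachytene spermatocytes, 485, 438 and 427 in wild-type and 457, 481 and 449 in KO round spermatids, and 395, 385 and 450.0 in wild-type and 375, 413 and 454 in KO condensing spermatids normalized CPM. Every round library was above every pachytene library, and condensing libraries overlapped the round ones. It rose by 1.59 ± 0.15 (adjusted p = 1.1e-06) in WT and 1.67 ± 0.10 (adjusted p = 7.4e-12) in KO. Its level per kb in WT round spermatids was 392 ± 26.9 CPM per kb. Psma4, the next highest of the alpha subunits, stood at 37.5 ± 0.978, Psma8 at 19.2 ± 1.15, Psma1 at 13.5 ± 0.922 and Psma7 at 4.21 ± 0.553. In spermatozoa Psma6 was at 135 and 106 in the wild-type and 58.2 in the KO spermatozoa library, a WT difference from condensing spermatids of -1.74 ± 0.16 (adjusted p = 6.7e-09), a comparison picked after its values were seen.

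The constitutive beta subunits, which carry the proteolytic sites, mostly fell into round spermatids and moved in both directions later. Into round spermatids 6 of 7 fell in WT (Psmb1 to Psmb5 and Psmb7) and 5 of 7 in KO, beside 35.9% and 38.4% of all genes, and none rose, beside 34.4% and 36.5%. The catalytic Psmb5, Psmb6 and Psmb7 (chymotrypsin-like, caspase-like and trypsin-like) changed least among them. Psmb5 ran from 25.9 to 40.9 normalized CPM in pachytene, 22.7 to 27.9 in round and 15.1 to 23.05 in condensing libraries. Psmb6, per kb the most abundant beta subunit in pachytene WT, ran from 89.9 to 133, 89.3 to 111 and 56.2 to 82.98. Psmb7 ran from 95.97 to 141, 71.1 to 90.7 and 60.2 to 82.01. Pachytene and round libraries overlapped for Psmb5 and Psmb6 and did not for Psmb7. The round minus pachytene log2 fold changes in WT were -0.57 ± 0.13 (adjusted p = 0.00164) for Psmb5, -0.17 ± 0.15 (adjusted p = 0.331) for Psmb6 and -0.46 ± 0.15 (adjusted p = 0.017) for Psmb7. In KO they were -0.17 ± 0.12 (adjusted p = 0.232), -0.06 ± 0.10 (adjusted p = 0.612) and -0.36 ± 0.10 (adjusted p = 0.00393). Psmb5 was called in WT alone, and its interaction of 0.39 ± 0.17 (adjusted p = 0.676) did not pass. With scaling by library size alone the KO value was -0.32 (adjusted p = 0.0316) and passed. The WT call of Psmb7 was lost without WT pachytene replicate 2 (adjusted p = 0.0739), WT round replicate 2 (0.0555) or WT round replicate 3 (0.0711), with WT round replicates 2 and 3 summed (0.061) and with a fold change over 1.2 (0.0626), in a range over all alternatives of 0.00218 to 0.0739. The KO call of Psmb7 was lost with a fold change over 1.2 (0.0928).

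Into condensing spermatids Psmb6 fell, at -0.49 ± 0.15 (adjusted p = 0.0158) in WT and -0.39 ± 0.10 (adjusted p = 0.00238) in KO, calls that were both lost with a fold change over 1.2 (adjusted p = 0.0629 and 0.0718), and Psmb5 fell in KO (-0.61 ± 0.13 (adjusted p = 6.4e-04)) while its WT value was -0.20 ± 0.14 (adjusted p = 0.239). Psmb3 in WT and Psmb1 in KO rose in this step, both named after their values were seen. The interaction test of the genotype difference of Psmb5 gave -0.42 ± 0.18 (adjusted p = 1), which did not pass. Psmb7 did not pass in either genotype, at -0.15 ± 0.16 (adjusted p = 0.44) and -0.22 ± 0.10 (adjusted p = 0.0864), and without KO round replicate 2 its KO value was -0.30 with an adjusted p of 0.0331. In WT spermatozoa 3 of 7 constitutive beta genes rose (Psmb1, Psmb3, Psmb4), beside 36.6% of all genes, and Psmb7 fell, at -0.56 ± 0.17 (adjusted p = 0.00686), a call lost without WT spermatozoa replicate 1 (adjusted p = 0.15). Psmb6 stood at 48.8 and 64.9 in the wild-type and 74.2 in the KO spermatozoa library, and its difference from WT condensing spermatids was -0.33 ± 0.18 (adjusted p = 0.107), which passed without WT condensing replicate 3 (adjusted p = 0.0021), with replicate number as a block (0.00196) and with no filter (0.0392), in a range of 0.00196 to 0.648.

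Immunoproteasome transcripts were close to absent from spermatocytes and spermatids. Psmb8, the counterpart of Psmb5 (chr17:34198195-34201454), had 0, 0 and 0 in wild-type and 0, 1 and 0 in KO pachytene spermatocytes, 5, 3 and 1 in wild-type and 1, 1 and 1 in KO round spermatids, and 7, 1 and 3 in wild-type and 5, 5 and 3 in KO condensing spermatids as raw counts. Psmb9, the counterpart of Psmb6 (chr17:34182030-34187330, close to Psmb8 in the major histocompatibility region), had 0, 1 and 0 in wild-type and 1, 1 and 0 in KO pachytene spermatocytes, 1, 0 and 0 in wild-type and 1, 0 and 0 in KO round spermatids, and 4, 2 and 0 in wild-type and 0, 2 and 1 in KO condensing spermatids as raw counts. No library of these stages held more than 7 counts of either. Psmb10, the counterpart of Psmb7, stood at 0.717, 1.78 and 0.876 in wild-type and 2.004, 0.9502 and 1.85 in KO pachytene spermatocytes, 0.671, 0.139 and 0.726 in wild-type and 0.976, 0.588 and 0.7195 in KO round spermatids, and 1.998, 1.597 and 2.46 in wild-type and 1.44, 1.38 and 1.23 in KO condensing spermatids normalized CPM, with condensing libraries above all round libraries and pachytene libraries overlapping both. Psmb8, Psmb9 and Psmb10 together gave 0.296% ± 0.127 (SD, n = 3) of the level per kb of the 6 catalytic genes in WT pachytene, 0.289% ± 0.125 in round and 1.204% ± 0.3702 in condensing spermatids, and 0.551% ± 0.169, 0.319% ± 0.0742 and 0.898% ± 0.136 in KO. Of the 75-base stretches of Psmb5 36.8% and of Psmb7 24.1% occur in other genes, whose reads may not be counted. The same holds for 10.8% of those of Psmb9 and 3.22% of those of Psmb8, so these shares may be too high or too low. Psmb10 had WT log2 fold changes of -1.10 ± 0.59 (adjusted p = 0.0924) into round and 1.96 ± 0.57 (adjusted p = 0.00764) into condensing spermatids, where it rose. With no filter Psmb10 rose by 1.94 (adjusted p = 0.00637) into WT condensing spermatids. In KO it fell into round spermatids, -1.08 ± 0.44 (adjusted p = 0.0278), and its condensing step was 0.82 ± 0.45 (adjusted p = 0.119). The interactions, 0.01 ± 0.71 (adjusted p = 0.997) and -1.14 ± 0.70 (adjusted p = 1), did not pass. That KO fall was lost in 4 leave-one-out fits: without KO pachytene replicate 1 (adjusted p = 0.0968) or 3 (0.0831), and without KO round replicate 2 (0.0957) or 3 (0.0774). It did not pass with no filter (adjusted p = 0.0538) nor by DESeq2's Wald test (0.115) either. The WT value passed with scaling by library size alone, at -1.28 (adjusted p = 0.0493). Psmb11, the thymus form, was not tested in any fit, with at most 2 counts in each library.

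The ratio of Psmb10 to Psmb7 rose into condensing spermatids. The log2 ratio differed by 1.17 (p = 0.005, adjusted p = 0.015) in the exact permutation test, with no overlap of libraries in either genotype. Psmb8, Psmb9 and Psmb10 together had 4 to 11 counts in each round library, so the ratio of Psmb10 to Psmb7 rests on few counts there. Into round spermatids the difference by the exact permutation test was -0.29 (p = 0.195, adjusted p = 0.273), and its sign depended on the pseudocount. The ratios of Psmb8 to Psmb5 and of Psmb9 to Psmb6 rest on 0 to 7 counts per library, so they follow the pseudocount and the constitutive gene. No p-value of their tests is given, though they count among the 21 of the correction.

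In spermatozoa libraries the same immune genes were plainly present. Raw counts of Psmb8 were 37 and 30 in the wild-type and 159 in the KO spermatozoa library, of Psmb9 17 and 21 in the wild-type and 44 in the KO spermatozoa and of Psmb10 18 and 16 in the wild-type and 75 in the KO spermatozoa. Psmb8 and Psmb9 passed the count filter only in the fit with spermatozoa, where they are high, so for them the fit with no filter is given: the log2 fold changes from WT condensing spermatids were 4.13 (adjusted p = 5.7e-17) and 4.17 (adjusted p = 4.4e-10). That of Psmb10 was 1.47 ± 0.43 (adjusted p = 0.00414) in the filtered fit and 1.41 (adjusted p = 0.00464) with no filter. The 3 genes gave 10.1% ± 0.8704 (n = 2) of the level per kb of the 6 catalytic genes in WT and 25.1% in KO spermatozoa. Markers of immune cells moved with them. All 8 macrophage markers were detected in every group, and their summed level was 5.02, 5.69 and 2.63 (WT) and 2.93, 3.64 and 3.71 (KO) normalized CPM in pachytene, 38.1, 28.6 and 27.00 and 20.5, 27.5 and 21.01 in round, 55.6, 32.7 and 46.2 and 21.1, 29.3 and 31.1 in condensing, and 1687 and 1586 (WT) and 5606 (KO) in spermatozoa libraries. The most abundant in spermatozoa were Cd74 at 876 in WT and Lyz2 at 2396 in KO. The 5 T and NK cell markers summed to 0.771 to 1.55 in pachytene, 2.16 to 5.63 in round and 2.03 to 4.92 in condensing libraries, and to 229 and 215 (WT) and 648 (KO) in spermatozoa, with Cd3g and Nkg7 at 0 in the pachytene libraries. Most of the sum in spermatozoa was Ptprc, at 190 (WT mean) and 543 (KO). Ptprc is not confined to T and NK cells, so this list is not separate from the macrophage one. The epididymal markers, 5 listed, reached 0 to 5.84, 0 to 3.92 and 0 to 3.51 in the first 3 stages and 1811 and 1928 (WT) and 556 (KO) in spermatozoa, mainly Crisp1, with Lcn5 and Lcn8 at 0 in every group. The label of the spermatozoa libraries gives testis as their tissue, at odds with the epididymal markers in them. The part of these cells in the result was not tested.

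**Figure D3:**
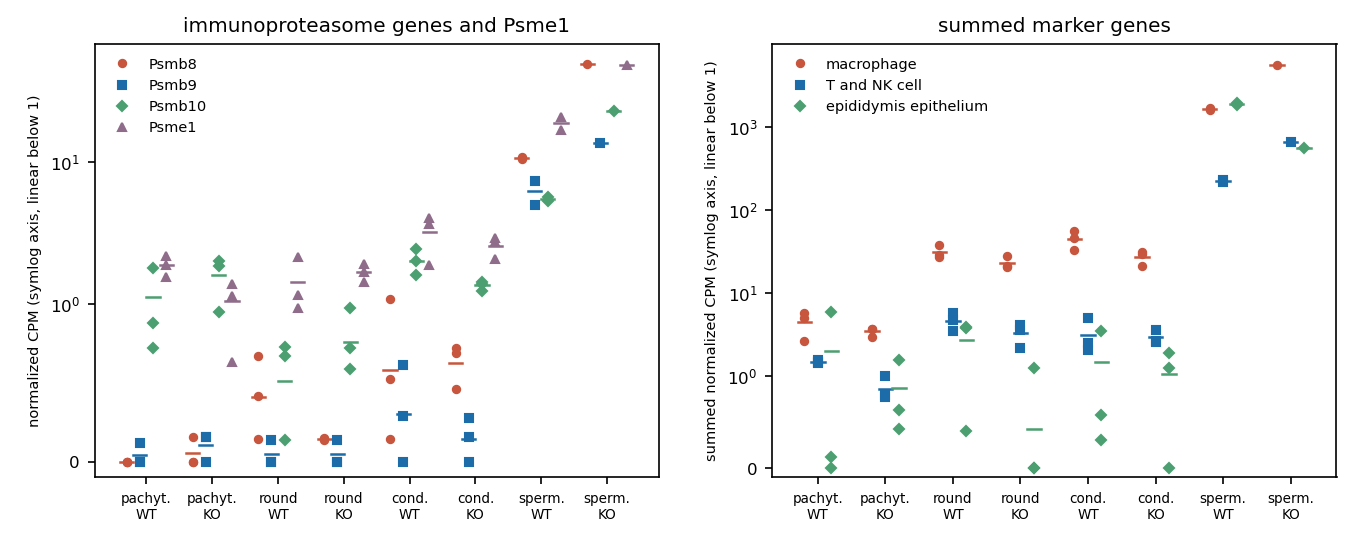
Left, normalized CPM of Psmb8, Psmb9, Psmb10 and Psme1 by stage and genotype, 1 point per library with a line at the group mean (axis linear below 1 and logarithmic above). Right, summed normalized CPM of the macrophage, T and NK cell and epididymis epithelium marker lists in the same libraries. The macrophage sum is 2.63 to 55.6 in the first 3 stages and 1586 to 5606 in spermatozoa. Most of the T and NK cell sum in spermatozoa is Ptprc, which is not confined to those cells.

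Psme4, the testis-rich activator PA200 (chr11:30771775-30881150, plus strand), rose after meiosis. It stood at 741, 477 and 827 in wild-type and 783, 832 and 769 in KO pachytene spermatocytes, 1384, 1627 and 1607 in wild-type and 1327, 1532 and 1614 in KO round spermatids, and 1058, 1203 and 1207 in wild-type and 1224, 1369 and 1304 in KO condensing spermatids normalized CPM. Every round library was above every pachytene library of either genotype, WT pachytene replicate 2 was the lowest of those 3 stages, and the condensing libraries lay between in WT and overlapped the round ones in KO. The step into round spermatids was 1.196 ± 0.18 (adjusted p = 6.0e-05) in WT and 0.89 ± 0.10 (adjusted p = 2.1e-07) in KO. The step into condensing spermatids was -0.39 ± 0.18 (adjusted p = 0.0918) in WT and -0.18 ± 0.10 (adjusted p = 0.137) in KO, and neither passed the threshold. The WT one did pass without WT pachytene replicate 2 (adjusted p = 0.0161) or 3 (0.0293) and in one fit on 18 libraries (0.0396), and the KO one without KO round replicate 1 (0.0431), within ranges over all alternatives of 0.0161 to 0.23 and 0.0431 to 0.653. In spermatozoa Psme4 was at 349.8 and 313 in the wild-type and 218 in the KO spermatozoa library, below every condensing library, and fell in WT, with a log2 fold change of -1.77 ± 0.16 (adjusted p = 6.0e-09).

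Its somatic relatives behaved otherwise. Psme3 (PA28 gamma, a nuclear activator) stood at 86.7, 89.8 and 74.6 in wild-type and 78.6, 76.02 and 79.01 in KO pachytene spermatocytes, 94.9, 100.2 and 89.9 in wild-type and 101, 94.8 and 90.7 in KO round spermatids, and 90.2, 89.4 and 107 in wild-type and 100.2, 96.4 and 105 in KO condensing spermatids normalized CPM, nearly level over the 3 stages. Its values into round spermatids were 0.20 ± 0.12 (adjusted p = 0.148) in WT and 0.27 ± 0.09 (adjusted p = 0.0129) in KO, of which the KO one passed, though not without KO round replicate 1 (adjusted p = 0.0506) nor with a fold change over 1.2 (0.281) nor with scaling by library size alone, at 0.12 (adjusted p = 0.287), and the interaction of 0.06 ± 0.14 (adjusted p = 0.922) did not. The WT one passed with at least 10 counts in every library, at 0.30 (adjusted p = 0.0287). Into condensing spermatids they were 0.03 ± 0.12 (adjusted p = 0.841) and 0.09 ± 0.09 (adjusted p = 0.421). Psme1 and Psme2, the PA28 alpha and beta subunits that pair into 1 ring and go with the immunoproteasome, lie close to each other at chr14:55578494-55581527 and chr14:55587440-55591101 on opposite strands. Psme1 stood at 1.55, 1.896 and 2.19 in wild-type and 1.39, 0.633 and 1.14 in KO pachytene spermatocytes, 2.15, 0.976 and 1.16 in wild-type and 1.67, 1.91 and 1.44 in KO round spermatids, and 3.69, 1.89 and 4.04 in wild-type and 2.73, 2.07 and 2.91 in KO condensing spermatids normalized CPM. Psme2 stood at 2.39, 2.13 and 1.75 in wild-type and 1.695, 1.27 and 1.57 in KO pachytene spermatocytes, 2.55, 1.53 and 2.18 in wild-type and 2.79, 1.47 and 1.44 in KO round spermatids, and 5.53, 4.93 and 7.55 in wild-type and 5.32, 5.95 and 3.68 in KO condensing spermatids normalized CPM. Both were at a few CPM in every library of these stages, and condensing libraries lay above all round ones for Psme2 and overlapped them for Psme1. Psme2 rose into condensing spermatids, 1.53 ± 0.28 (adjusted p = 6.2e-04) in WT and 1.40 ± 0.32 (adjusted p = 7.6e-04) in KO, and Psme1 rose in WT, 1.16 ± 0.40 (adjusted p = 0.0245), beside 0.63 ± 0.33 (adjusted p = 0.113) in KO and an interaction of -0.54 ± 0.50 (adjusted p = 1) that did not pass. The WT call of Psme1 was lost without WT condensing replicate 1 (adjusted p = 0.0861) or 3 (0.0926) and without WT round replicate 2 (0.0989) or 3 (0.084), and with these last 2 summed (0.0604).

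Into round spermatids neither passed, at -0.35 ± 0.41 (adjusted p = 0.454) and 0.63 ± 0.40 (adjusted p = 0.15) for Psme1 and 0.01 ± 0.31 (adjusted p = 0.976) and 0.31 ± 0.39 (adjusted p = 0.47) for Psme2 (WT and KO). Of Psme2's 75-base stretches 47.5% also occur in Psme2b, an intronless copy, and reads that match both were not counted. In WT spermatozoa the activators split: Psme1 rose by 2.60 ± 0.32 (adjusted p = 1.7e-07) and Psme2 by 2.48 ± 0.24 (adjusted p = 4.5e-09), while Psme3 fell, -0.80 ± 0.16 (adjusted p = 1.3e-04). Psme1 levels there were 20.9 and 16.9 in the wild-type and 48.3 in the KO spermatozoa library, and those of Psme2 31.8 and 33.5 in the wild-type and 42.8 in the KO spermatozoa library, all above every condensing library. Psme2b had 24 and 17 in the wild-type and 25 in the KO spermatozoa library as raw counts and at most 6 in each condensing library, and passed the count filter only through spermatozoa.

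Psme4 gave most of the activator level per kb up to the condensing stage and a smaller share in spermatozoa. Per kb, it stood at 237 ± 20.8 CPM per kb in WT round spermatids beside 35.7 ± 1.94 for Psme3, 2.14 ± 0.527 for Psme2 and 1.28 ± 0.566 for Psme1. It made up 73.99% ± 7.12 (SD) of the summed level per kb of Psme1 to Psme4 in WT pachytene, 85.8% ± 1.47 in round and 79.9% ± 1.99 in condensing spermatids, and 41.9% ± 2.03 (n = 2) in spermatozoa. The KO shares were 79.4% ± 1.25, 85.3% ± 2.17, 81.6% ± 1.07 and 21.7%. The log2 ratio of Psme4 to Psme3 rose into round spermatids by 0.82 (p = 0.005, adjusted p = 0.015) and fell into condensing spermatids, -0.34 (p = 0.01, adjusted p = 0.0233), in the exact permutation test. In the same exact permutation test the ratio to Psme1 differed by 0.97 (p = 0.015, adjusted p = 0.0315) and -1.02 (p = 0.005, adjusted p = 0.015), and that to Psme2 by 0.96 (p = 0.01, adjusted p = 0.0233) and -1.58 (p = 0.005, adjusted p = 0.015). So all 3 mean differences were above 0 in the first step and below 0 in the second. In the first step the difference against Psme1 was 1.55 in WT and 0.39 in KO libraries, and the libraries of the 2 stages did not overlap in 1 genotype of the 2, as also against Psme2. The rise against Psme1 did not pass with a pseudocount of 0.1 (0.94, adjusted p = 0.07).

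In the 19S cap, the ATPase ring that unfolds substrates was divided. Into round spermatids Psmc2 rose and Psmc1, Psmc4 and Psmc5 fell in both genotypes, and Psmc6 fell and Psmc3 rose in KO alone. Psmc2 (chr5:21785275-21803787, plus strand), picked after its values were seen, stood at 298, 315 and 244 in wild-type and 257, 246 and 284 in KO pachytene spermatocytes, 447, 489 and 485 in wild-type and 459, 435 and 428 in KO round spermatids, and 321, 309.7 and 340.3 in wild-type and 310.0, 315 and 346 in KO condensing spermatids normalized CPM. Every round library lay above every pachytene library. Its log2 fold change was 0.75 ± 0.12 (adjusted p = 1.2e-04) in WT and 0.73 ± 0.09 (adjusted p = 6.8e-07) in KO, then -0.52 ± 0.12 (adjusted p = 0.00375) and -0.43 ± 0.09 (adjusted p = 6.4e-04) into condensing spermatids, where it fell, and -1.73 ± 0.15 (adjusted p = 2.6e-09) into WT spermatozoa. Of the 11 other 19S subunits, 8 fell into round spermatids in each genotype, where 35.9% (WT) and 38.4% (KO) of all genes fell, and none rose, where 34.4% and 36.5% did. Psmd14, the deubiquitinating subunit, fell most among them. It stood at 50.3, 49.3 and 46.6 in wild-type and 47.8, 48.3 and 58.5 in KO pachytene spermatocytes, 13.95, 16.9 and 13.6 in wild-type and 13.4, 11.8 and 15.97 in KO round spermatids, and 20.6, 23.5 and 22.8 in wild-type and 25.2, 19.4 and 19.2 in KO condensing spermatids normalized CPM, with round libraries under all pachytene libraries. It fell, at -1.69 ± 0.13 (adjusted p = 1.5e-07) in WT and -1.93 ± 0.15 (adjusted p = 3.9e-10) in KO. Into condensing spermatids Psmd1 and Psmd14 rose in both genotypes, while 5 (WT) and 6 (KO) of the 11 fell beside 21.8% and 24.5% of all genes, with Psmd12 at -0.60 ± 0.14 (adjusted p = 0.00431) in WT among the largest. In WT spermatozoa 8 of the 11 fell and Psmd14 rose, beside 35.8% and 36.6% of all genes.

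Assembly chaperones moved in both directions. Psmd10 (gankyrin, chrX:140948425-140956711, minus strand), which helps to build the 19S base and is the 1 member on the X chromosome, stood at 4.54, 4.38 and 2.78 in wild-type and 4.16, 4.91 and 4.99 in KO pachytene spermatocytes, 21.3, 19.2 and 20.5 in wild-type and 17.98, 18.2 and 19.3 in KO round spermatids, and 12.1, 11.2 and 11.6 in wild-type and 11.5, 11.3 and 13.2 in KO condensing spermatids normalized CPM. Round libraries were above all pachytene libraries, and the condensing libraries were all between them. It had the largest rise of the family into round spermatids, 2.38 ± 0.18 (adjusted p = 1.5e-07) in WT and 1.95 ± 0.18 (adjusted p = 2.7e-09) in KO, and fell into condensing spermatids, -0.78 ± 0.16 (adjusted p = 0.0016) and -0.61 ± 0.15 (adjusted p = 0.00175). Into WT spermatozoa it rose by 0.86 ± 0.22 (adjusted p = 0.00145), a value picked after it was seen. Psmg3, a 20S chaperone, stood at 2.03, 4.15 and 3.36 in wild-type and 3.699, 1.900 and 2.71 in KO pachytene spermatocytes, 0.939, 0.139 and 0.2903 in wild-type and 0.279, 0.294 and 0.288 in KO round spermatids, and 2.15, 1.31 and 0.351 in wild-type and 2.16, 0.8297 and 0.9200 in KO condensing spermatids normalized CPM, near 0 in round libraries. It passed the count filter through the pachytene libraries, where it is high, so the fit with no filter is given: it was lower in round spermatids by that fit too, at -2.74 (adjusted p = 1.8e-04) in WT and -3.21 (adjusted p = 8.7e-09) in KO. Of its 75-base stretches 19.4% occur in an overlapping transcript, Gm26938, of the same strand. Psmg1 and Psmg4 fell in both genotypes as well. Psmg2 fell into round spermatids in KO alone, at -0.34 ± 0.14 (adjusted p = 0.037), and fell into condensing spermatids in both, -0.62 ± 0.13 (adjusted p = 0.00183) and -0.63 ± 0.15 (adjusted p = 0.00153).

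Psmf1, the proteasome inhibitor PI31 (chr2:151716062-151744199, minus strand), rose into round spermatids, as Psme4 did, and fell in spermatozoa. It stood at 141, 154 and 94.5 in wild-type and 118, 105 and 116 in KO pachytene spermatocytes, 409.7, 391 and 397 in wild-type and 433, 494 and 358 in KO round spermatids, and 318, 325 and 459 in wild-type and 301, 328 and 376 in KO condensing spermatids normalized CPM, with all round libraries above all pachytene libraries. It rose by 1.64 ± 0.18 (adjusted p = 4.5e-06) in WT and 1.90 ± 0.12 (adjusted p = 2.4e-11) in KO. Into condensing spermatids it had -0.09 ± 0.18 (adjusted p = 0.704) in WT and fell in KO, at -0.34 ± 0.11 (adjusted p = 0.0168), and the interaction of -0.26 ± 0.22 (adjusted p = 1) did not pass. In spermatozoa it was at 80.6 and 87.1 in the wild-type and 37.2 in the KO spermatozoa library and fell from the WT condensing stage, at -2.11 ± 0.18 (adjusted p = 2.1e-09). Psmc3ip, the meiotic recombination cofactor that is not a subunit, stood at 151, 156 and 130.4 in wild-type and 118, 130.0 and 145 in KO pachytene spermatocytes, 112, 106 and 104 in wild-type and 104, 101 and 119 in KO round spermatids, and 80.8, 81.1 and 63.4 in wild-type and 84.1, 75.2 and 77.7 in KO condensing spermatids normalized CPM, with pachytene and round libraries overlapping at the edge. It fell, at -0.42 ± 0.12 (adjusted p = 0.00802) in WT and -0.30 ± 0.10 (adjusted p = 0.0153) in KO, far less than Psma8, then -0.48 ± 0.13 (adjusted p = 0.00662) and -0.44 ± 0.11 (adjusted p = 0.00181), and -2.19 ± 0.21 (adjusted p = 5.3e-09) into WT spermatozoa, the largest fall of the members there. Its KO call into round spermatids was lost without KO pachytene replicate 3 (adjusted p = 0.0593) and without KO round replicate 1 (0.0582) or 2 (0.0719), with at least 10 counts in every library, at -0.19 (adjusted p = 0.0859), and with a fold change over 1.2 (0.216), which lost the WT call too (0.0569).

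Between WT condensing spermatids and WT spermatozoa, calls were about as frequent among the members as among all genes. Of the 49 tested, 15 (30.6%) rose, where 36.6% of 15116 genes rose, and 21 (42.9%) fell, where 35.8% did. The member median was -0.26 on the log2 scale and the all-gene median 0.00. Without WT spermatozoa replicate 1 the member median was -0.05 and the falls numbered 17. Psmb8, Psmb9 and Psme2b, 3 of the 15 rises, passed the filter only through spermatozoa. These counts rest on 2 libraries with markers of other cells, given above.

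No proteasome gene passed the threshold between KO and WT in any of the 3 stages. Of the 46, 44 and 45 members tested, 0 were called in pachytene spermatocytes, where 0.0% of 12236 genes were called, 0 in round spermatids, where 0.0156% of 12804 genes (2) were, and 0 in condensing spermatids, where 0.00728% of 13734 genes (1) were. At an unadjusted p under 0.05 there were 0, 1 and 1 members, beside 815, 753 and 870 of all genes tested. With each library left out in turn these member counts ran from 0 to 6, 1 to 3 and 0 to 5. DESeq2's Wald test called 0 members in each stage too. The fractions differed in somatic markers between genotypes. Sertoli sums were lower in every KO than in every WT library of each stage. Leydig sums were so in round and condensing spermatids, and macrophage sums in condensing spermatids. The part of these cells in the KO minus WT values was not tested. Psma8 in round spermatids had the smallest p of any member, with KO values (24.3, 20.9 and 24.9 normalized CPM) under all WT values (30.5, 34.3 and 32.95). Its log2 fold change was -0.47 ± 0.11 (adjusted p = 0.599), unadjusted p = 0.00151, and no alternative setting called it (adjusted p 0.0512 to 1). In pachytene and condensing spermatids the Psma8 values were 0.19 ± 0.12 (adjusted p = 0.657) and 0.00 ± 0.11 (adjusted p = 1), with overlapping genotypes in both stages. Psme4 was at 0.27 ± 0.21 (adjusted p = 0.68), -0.03 ± 0.09 (adjusted p = 0.996) and 0.16 ± 0.13 (adjusted p = 0.908) in the 3 stages, and Psma7 at -0.06 ± 0.21 (adjusted p = 0.92), -0.12 ± 0.20 (adjusted p = 0.992) and 0.16 ± 0.19 (adjusted p = 0.95).

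The other members with the smallest p were also short of the threshold. In pachytene spermatocytes these were Psmb5 at -0.30 ± 0.15 (adjusted p = 0.656), Psmd13 at -0.23 ± 0.11 (adjusted p = 0.656) and Psme1 at -0.74 ± 0.39 (adjusted p = 0.656). In round spermatids they were, after Psma8, Psma3 at -0.18 ± 0.10 (adjusted p = 0.922) and Psmc6 at -0.17 ± 0.11 (adjusted p = 0.952). In condensing spermatids they were Psmb5 at -0.33 ± 0.14 (adjusted p = 0.717) with an unadjusted p of 0.0276, Psmb4 at -0.18 ± 0.11 (adjusted p = 0.852) and Psmb10 at -0.57 ± 0.35 (adjusted p = 0.854). The members at an unadjusted p under 0.05 in the interaction tests were Psma8, Psmb5 and Psmc6 for the first step and Psma8 and Psmb5 for the second. Psma8 had interaction values of -0.66 ± 0.16 (adjusted p = 0.676) and 0.47 ± 0.17 (adjusted p = 1), so its larger KO fall and larger KO rebound did not pass. None of the 5 ratio pairs without Psmb8 and Psmb9 passed for KO minus WT in the exact permutation test: the smallest adjusted p was 0.11 (Psme4/Psme2), with 8000 relabellings and a smallest possible p of 0.00025. A p that misses the threshold does not show that values were equal.

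Genes that work with the proteasome were taken from a list of 38, of which 37 were in the files (Paaf1 was not found). Into round spermatids 15 (41.7%) of the 36 tested rose in WT and 12 (33.3%) fell, near the 34.4% and 35.9% of all genes. Among the rises, Ubqlnl, a ubiquilin-like gene, rose by 2.74 ± 0.25 (adjusted p = 1.0e-06) and Ddi1, which carries ubiquitinated proteins to the proteasome, by 2.33 ± 0.23 (adjusted p = 1.6e-06) on the log2 scale. The largest falls were of Nsfl1c, a cofactor of the segregase Vcp, at -2.56 ± 0.15 (adjusted p = 2.6e-08), of Rps27a, a ubiquitin and ribosomal protein fusion gene, at -1.98 ± 0.13 (adjusted p = 6.1e-08), and of Fbxo7, a ubiquitin ligase adaptor that binds Psmf1, at -1.90 ± 0.15 (adjusted p = 2.0e-07). Into condensing spermatids 9 (25.0%) rose and 8 (22.2%) fell, near the 28.3% and 21.8% of all genes. Ubqln2 rose by 2.49 ± 0.31 (adjusted p = 3.5e-05), Nsfl1c by 0.96 ± 0.16 (adjusted p = 4.0e-04) and Pomp, the 20S maturation factor, by 0.78 ± 0.15 (adjusted p = 0.00101). The falls were led by Uba1y, the Y-linked ubiquitin-activating enzyme, at -0.96 ± 0.16 (adjusted p = 3.7e-04), Shfm1 (Sem1, a 19S subunit) at -0.59 ± 0.14 (adjusted p = 0.00418) and Akirin2, which brings proteasomes into the nucleus, at -0.51 ± 0.12 (adjusted p = 0.00446).

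What the rule did not use was the genes' position and promoter. The 50 genes lie on 16 chromosomes, with Psme1 close to Psme2, Psmb5 to Psmb11 and Psmb8 to Psmb9. RefSeq promoter windows (GRCm38.p6, 250 bases before to 50 after a gene's start) were found for 42 of the 50. A match to TGACNNNGC, the core of antioxidant response elements (either strand), was in 6 of 42 (14.3%; Psmb5, Psmb6, Psmc6, Psmd9, Psmd12, Psme4), close to 13.99% of all 27025 genes with a window. CCAAT (either strand) was in 15 of 42 (35.7%) and 41.1% of all genes, and TGACGTCA (the cyclic AMP response element, its own reverse complement) in 0 of 42 and 2.03% of all genes. Windows at 2 starts were listed for 3 of 42 genes (7.14%, beside 15.4% of all genes), and Psma6 and Psmc2, 2 of the 5 that rose into round spermatids in both genotypes, were among them. The 100 bases before each listed start of those 5 genes, with 2 bases after, are printed because of that shared rise. Their later steps differed, and into WT spermatozoa Psmd10 rose while the others fell. Capitals mark TGACNNNGC or CCAAT on either strand, each run reads 5' to 3' on the gene's strand, and a match is a description only. The windows are chr12:55384122-55384223 (+) for Psma6 start 1, chr12:55398725-55398826 (+) for Psma6 start 2, chr5:21785175-21785276 (+) for Psmc2 start 1, chr5:21786647-21786748 (+) for Psmc2 start 2, chrX:140956710-140956811 (-) for Psmd10 start 1, chr11:30771675-30771776 (+) for Psme4 start 1 and chr2:151741309-151741410 (-) for Psmf1 start 1.
Psma6 start 1: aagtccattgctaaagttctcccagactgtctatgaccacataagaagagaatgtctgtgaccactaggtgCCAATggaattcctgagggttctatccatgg
Psma6 start 2: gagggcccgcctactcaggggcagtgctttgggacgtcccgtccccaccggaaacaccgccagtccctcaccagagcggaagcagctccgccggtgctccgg
Psmc2 start 1: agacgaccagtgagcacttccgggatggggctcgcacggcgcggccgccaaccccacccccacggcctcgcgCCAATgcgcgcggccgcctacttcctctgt
Psmc2 start 2: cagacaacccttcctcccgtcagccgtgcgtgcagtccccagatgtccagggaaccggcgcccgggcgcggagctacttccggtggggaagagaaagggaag
Psmd10 start 1: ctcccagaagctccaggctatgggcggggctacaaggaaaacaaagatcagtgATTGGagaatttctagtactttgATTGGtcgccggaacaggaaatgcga
Psme4 start 1: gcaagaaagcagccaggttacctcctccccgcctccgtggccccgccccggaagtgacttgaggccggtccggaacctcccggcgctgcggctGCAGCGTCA
Psmf1 start 1: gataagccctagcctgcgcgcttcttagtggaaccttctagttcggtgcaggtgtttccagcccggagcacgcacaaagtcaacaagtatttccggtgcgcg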

How the data were processed

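Total RNA of 21 libraries was sequenced (TruSeq Stranded Total RNA, paired ends). The authors aligned the reads with STAR 2.7.11b to mm10 and deposited raw HTSeq counts per gene, exons only, reverse strand, with multiply aligned reads left out; 34.6 to 57.7% of each library's counts fell on no gene row. The counts of all genes were fitted with edgeR 4.0.16 (R 4.3.3, limma 3.58.1): TMM, filterByExpr, quasi-likelihood test, Benjamini-Hochberg adjusted p under 0.05. DESeq2 1.42.0 (Wald test) was an alternative. Standard errors came from the information matrix and the posterior quasi-dispersion of the fit. One fit held the 9 libraries of 3 stages per genotype, one each the KO comparisons (6 libraries), one the WT spermatozoa, and one all 18 for interactions. Log2 ratios used normalized CPM plus 0.5. Per-kb levels used the union of exons.

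Named genes were Psma8, Psma7, Psme1 to Psme4 and Psmb5 to Psmb11 always; the 3 members per direction with the largest called fold change and at least 1 normalized CPM on average in each stage step; the 3 with the smallest p where a KO comparison called none; Psmc3ip; H2afb1; and 3 of the pathway list per direction, of which 1 is not reported here. The members and lists were chosen with earlier results of these data known. WT round replicates 2 and 3 are closer than any other pair of a group (chi-square 1.06 per gene at middling counts and 8.76 in the most abundant, beside 1.90 to 12.2 and 65.9 to 593). The 1.06 is near the value that counting error alone gives, and the 8.76 is above it. Whether they are separate samples cannot be told. They were kept apart, with their sum as an alternative. The SDs of WT round spermatids and the ratio tests given here treat them as separate libraries, and so would be too sure if they are not. Scripts were tested on simulated data.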

Additional observations from a re-analysis of the deposited data

Results flagged for a closer look

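The single KO spermatozoa library is in no test. Its level was compared with both WT spermatozoa libraries by exact 95% Poisson intervals on the counts, which cover counting error only. In 9 of the 50 genes the KO interval lay above both WT intervals, in 3 it lay below both, and in 38 it overlapped at least 1 of them. Among genes with at least 10 counts in each of the 3 libraries, 19.1% of 47 members were above and 6.38% below, beside 24.2% and 17.4% of all 11454 genes, and this difference was not tested. Psma4, alpha subunit, was at 32.9 normalized CPM in the KO library (26.98 to 39.8) beside 20.3 and 19.05 in WT. Psma6, alpha subunit, was at 58.2 normalized CPM in the KO library (50.2 to 67.1) beside 135 and 106 in WT. Psmb10, immunoproteasome subunit, was at 23.1 normalized CPM in the KO library (18.2 to 28.9) beside 5.295 and 5.64 in WT. Psmb4, beta subunit, was at 107 normalized CPM in the KO library (96.4 to 119) beside 72.4 and 82.9 in WT. Psmb8, immunoproteasome subunit, was at 48.9 normalized CPM in the KO library (41.6 to 57.2) beside 10.9 and 10.6 in WT. Psmc6, 19S ATPase, was at 33.9 normalized CPM in the KO library (27.8 to 40.8) beside 19.7 and 21.2 in WT. Psmd13, 19S subunit, was at 49.9 normalized CPM in the KO library (42.5 to 58.1) beside 34.1 and 33.5 in WT. Psmd14, 19S deubiquitinase, was at 45.9 normalized CPM in the KO library (38.8 to 53.8) beside 29.1 and 29.6 in WT. Psme1, activator, was at 48.3 normalized CPM in the KO library (41.1 to 56.5) beside 20.9 and 16.9 in WT. Psme3, activator, was at 91.7 normalized CPM in the KO library (81.6 to 103) beside 50.6 and 56.8 in WT. Psme4, testis-rich activator, was at 218 normalized CPM in the KO library (203 to 235) beside 349.8 and 313 in WT. Psmf1, inhibitor, was at 37.2 normalized CPM in the KO library (30.9 to 44.5) beside 80.6 and 87.1 in WT. The difference was not tested between genotypes, since 1 library gives no spread. In the same libraries the 8 macrophage markers summed to 5606 (KO) and to 1687 and 1586 (WT) normalized CPM, the 8 elongating spermatid markers to 11065 (KO) and 29146 and 26862 (WT), and the 5 epididymal markers to 556 (KO) and 1811 and 1928 (WT). The part of these cells was not tested.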

How the results depend on the processing

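Over 2934 alternative values of the named genes, 2818 had the reported sign and stayed called or uncalled, 35 lost the call, 15 gained it and 66 changed sign; each value that changed sign was not called before or after, and the cause was not tested. The WT falls from round to condensing spermatids numbered 8 when scaled by library size alone, 8 with at least 10 counts in every library and 7 with a fold change over 1.2, in place of 13, and 8 to 16 with each library left out in turn. The KO falls numbered 9 in place of 16 with a fold change over 1.2, and the KO rises 5 to 8 in place of 8 with each library left out. The counts of members called in the KO and interaction tests were 0 in every alternative, and no library left out changed that; without WT pachytene replicate 3 243 genes in all were called in KO minus WT pachytene, and without WT round replicate 1 264 in round spermatids.

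With each library left out in turn, log2 values whose sign turned ranged as follows, the reported value in brackets. In condensing minus round in WT, H2afb1 (-0.02) -0.22 to 0.0764 and Psme3 (0.03) -0.06401 to 0.0677. In the interaction of the round step, H2afb1 (-0.32) -0.53 to 0.0513, Psma7 (-0.05) -0.16 to 0.19, Psmb10 (0.01) -0.45 to 0.37, Psmb7 (0.09) -0.0175 to 0.26 and Psme2 (0.29) -0.0521 to 0.51. In KO minus WT in condensing, Psma7 (0.16) -0.0372 to 0.30, Psma8 (0.00) -0.10 to 0.08598, Psmb6 (-0.03) -0.17 to 0.0687 and Psmc3ip (0.06) -0.0356 to 0.11. In KO minus WT in pachytene, Psma7 (-0.06) -0.29 to 0.0699. In WT spermatozoa minus condensing, Psmb5 (0.04) -0.11 to 0.19. In the interaction of the condensing step, Psmb6 (0.08) -0.0435 to 0.20, Psmb7 (-0.08) -0.18 to 0.0279, Psmc3ip (0.03) -0.0504 to 0.13 and Psme2 (-0.14) -0.30 to 0.26. In KO minus WT in round, Psmb7 (-0.03) -0.11 to 0.0621, Psmc3ip (0.03) -0.04797 to 0.0757, Psme2 (-0.12) -0.50 to 0.0585, Psme3 (0.02) -0.0138 to 0.0654 and Psme4 (-0.03) -0.10 to 0.0523. In round minus pachytene in KO, Psme2 (0.31) -0.0648 to 0.50. In round minus pachytene in WT, Psme2 (0.01) -0.16 to 0.19.

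Other alternatives turned the sign of uncalled values too. With library size only they were 0.0374 for H2afb1 (condensing minus round in WT), -0.0293 for Psma8 (KO minus WT in condensing), -0.0115 for Psmc3ip (the interaction of the condensing step) and -0.17 for Psme2 (round minus pachytene in WT). With at least 10 counts in every library they were 0.05202 for H2afb1 (condensing minus round in WT) and 0.0505 for Psmb6 (round minus pachytene in KO). With no filter they were 0.00416 for Psma7 (the interaction of the round step), -0.0194 for Psmb5 (WT spermatozoa minus condensing) and -0.0218 for Psme2 (round minus pachytene in WT). With no mitochondrial genes they were 0.00473 for Psma7 (the interaction of the round step) and -0.0000633 for Psma8 (KO minus WT in condensing). With wild-type round spermatid replicates 2 and 3 summed they were -0.003802 for Psmb10 (the interaction of the round step) and 0.005402 for Psme4 (KO minus WT in round). With replicate block they were -0.00528 for Psme2 (round minus pachytene in WT). With DESeq2 size factors they were -0.0119 for Psme3 (condensing minus round in WT). With DESeq2 Wald test they were -0.0124 for Psme3 (condensing minus round in WT).

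For the ratio of Psma8 to Psma7 into round spermatids the difference was -2.03 in wild-type and -2.66 in KO libraries alone, and into condensing spermatids -0.51 with a pseudocount of 0.1. The ratio of Psme4 to Psme1 into round spermatids was 0.94 with a pseudocount of 0.1, 1.55 in wild-type and 0.39 in KO libraries. Psmb8/Psmb5 was 1.40 and 0.37 into round and 0.42 and 1.41 into condensing spermatids, and Psmb10/Psmb7 1.55 and 0.79 into condensing spermatids (wild-type, then KO libraries alone). Into round spermatids Psmb9/Psmb6 turned to -0.12 with a pseudocount of 0.1 and Psmb10/Psmb7 to 0.21 with 5. The Psmb8/Psmb5 and Psmb9/Psmb6 values rest on the few counts given above and follow the pseudocount, so nothing is read from them.

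On the longest RefSeq transcript in place of the exon union, Psma7 stood at 9.66 and 8.82 (pachytene, WT and KO), 5.44 and 4.96 (round), and 17.1 and 19.1 (condensing) CPM per kb, and the Psma8 share of the pair was 93.3 and 94.3% in pachytene, 78.0 and 73.5% in round and, in KO, 67.3% in condensing spermatids. Scaled by library size alone, KO pachytene levels were 160.1 CPM per kb for Psma8, 132 for Psme4 and 31.6 for Psme3, and Psme3 was 33.6 in WT round spermatids; with DESeq2 size factors Psme3 in KO pachytene spermatocytes was 28.4.

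With replicate number as a block, members higher and lower numbered 5 and 29 (5 and 29) into round spermatids in WT and 6 and 31 (7 and 31) in KO, 10 and 13 (9 and 13) into condensing spermatids in WT and 7 and 16 (8 and 16) in KO, and 13 and 23 (15 and 21) in WT spermatozoa, reported counts in brackets. Members called between KO and WT stayed at 0 in the block fits, while all genes called rose from 2 to 61 in round and from 1 to 26 in condensing spermatids, and Psmb6 in WT spermatozoa gained a call, at -0.49 (adjusted p = 0.00196), while Psma8 in round spermatids had an adjusted p of 0.0774. Replicate numbers showed no pairing of WT with KO: correlations of their deviations over genes were -0.145 to -0.0993 in pachytene, 0.0385 to 0.178 in round and -0.0324 to 0.0469 in condensing libraries. Psmb8, Psmb9 and Psme2b had too few counts to be tested before spermatozoa and Psmb11 too few in any fit, so at this depth a low level and absence cannot be told apart for them.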
